A study of Sus scrofa with 35 samples.

Results

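Gene expression in the longissimus dorsi (LD), a back muscle built mostly of fast fibres, was compared between F1 pigs and the midpoint of their 2 parental breeds, Creole and Large White. The comparison used 35 of the 35 arrays of the series: 11 from F1 pigs (6 TN and 5 HS), 12 from Creole pigs (6 TN and 6 HS) and 12 from Large White pigs (6 TN and 6 HS). All pigs were castrated males, and each 1-colour array carried the RNA of the muscle of 1 pig. The labels do not say which breed the mothers of the F1 pigs came from. Thermoneutrality (TN) was 24 °C. For heat stress (HS) the sample labels give 30 °C, but 32 °C for 5 days is stated in the growth protocol and in the methods, a disagreement that was not resolved here. Per the study methods each breed was made of a few groups of littermates, so pigs of 1 breed share parents while the fit treats them as independent. TN and HS pigs were slaughtered on different days and kept in different pens, which cannot be told apart from temperature. Per the methods each pen held pigs of 1 breed only, so pens differ between the breeds too and cannot be told apart from breed. Numbers after TN and HS only name the arrays and pair nothing.

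The measure is the departure of F1 from additivity. It is the fitted F1 mean minus the average of the fitted Creole and Large White means, on the log2 scale of the quantile-normalised spot intensity, with temperature as a covariate. A positive departure means that F1 lay above the midpoint. A probe was called when its limma p-value, adjusted by Benjamini-Hochberg over all 41517 probes kept, was under 0.05.

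As background, a gene whose alleles act additively is expected midway between the breeds in their cross. Dominance of an allele, expression from the allele of 1 parent only, and transmission through 1 parent only are known ways to leave the midpoint. The mitochondrial genome is passed on by the mother and encodes subunits of ATP synthase and of the respiratory complexes I, III and IV, the chain that supplies muscle with ATP. Aldo-keto reductases reduce aldehydes and ketones, steroids among them. IGF2, a growth factor of muscle and other tissues, is expressed mainly from the paternal allele in most mammalian tissues.

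The departures rest on 60-base probes, and 4 pairs of probes with shared stretches are shown because both members of each were called. Capitals mark the stretches of at least 8 bases that the probes of a pair share. The first pair is named for ND2, a complex I subunit encoded in the mitochondrial genome, and shares 54 bases in 3 stretches. Both members were higher in F1, by 2.45 and 1.09 (log2).
ND2 A_72_P719508: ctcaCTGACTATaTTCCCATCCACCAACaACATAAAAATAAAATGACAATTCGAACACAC
ND2 A_72_P727968: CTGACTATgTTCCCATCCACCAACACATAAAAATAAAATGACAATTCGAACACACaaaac

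The second pair shares 41 bases in 3 stretches. Its first member is named ND2, and its other member carries no symbol but is described in the files as chain 2 of the same complex. They were higher in F1 by 1.09 and 0.75 (log2). The member without a symbol was well above background on 9 F1, 2 Creole and 2 Large White arrays. It passed the background filter (75% of the arrays of any 1 group) only through F1, where it is high, so its call adds no separate support.
ND2 A_72_P442176: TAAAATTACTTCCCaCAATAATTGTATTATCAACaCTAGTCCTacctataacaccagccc
A_72_P257802: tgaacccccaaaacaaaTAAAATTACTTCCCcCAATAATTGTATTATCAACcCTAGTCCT

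The third pair, named for AKR1C1, an aldo-keto reductase that acts on steroids, shares 47 bases in 1 stretch. Both members were lower in F1, with departures of -0.70 and -0.67 (log2).
AKR1C1 A_72_P672532: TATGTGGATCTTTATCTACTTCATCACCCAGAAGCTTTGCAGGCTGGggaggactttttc
AKR1C1 A_72_P505297: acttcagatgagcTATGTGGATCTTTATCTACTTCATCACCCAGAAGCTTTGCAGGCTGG

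The fourth pair belongs to relatives of AKR1C1, described in the files as C1-like and C2-like, and shares 34 bases in 2 stretches. The reference names give the first of them the symbol AKR1C1 too, and it is called AKR1C1-like below. Both were higher in F1, by 1.40 and 1.47 (log2).
AKR1C1-like A_72_P569209: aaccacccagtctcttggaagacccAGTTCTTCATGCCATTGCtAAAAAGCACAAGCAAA
LOC733635 A_72_P440651: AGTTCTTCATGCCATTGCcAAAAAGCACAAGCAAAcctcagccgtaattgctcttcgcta

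By array, the share of probes well above background was 58.4% to 75.9%. Before normalisation F1 arrays had a 75th percentile of 9.10 ± 0.14 on the log2 scale (SD, n = 11), which lay beside 9.15 ± 0.23 for Creole (SD, n = 12) and 9.18 ± 0.27 for Large White (SD, n = 12). Slides 1 to 4 each held all 3 breeds and slide 5 held none of F1. All 13 measured fast fibre genes, the defining genes of this muscle, were well above background on 35 of 35 arrays. The 102 probes called below had 99 distinct sequences, so a few calls repeat one another.

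Departures from the midpoint were few, and most of the called probes were higher in F1. Of 41517 probes, 102 were called (0.246%), of which 78 were higher (0.188%) and 24 lower (0.0578%) in F1 than the midpoint. The called probes named 28 genes: 43 of the 102 were named for mitochondrially encoded proteins and 29 for other genes, while 30 had no symbol. Among the probes not named for a mitochondrially encoded protein, 59 of 41390 were called (0.143%). The median size of the called departures was 0.54 (log2), and 25 exceeded 1. Over all kept probes the median departure was -0.0035, with 5% of probes under -0.17 and 5% above 0.18 (log2). In 69 of the 102 called probes all 11 F1 arrays lay on the same side of the midpoint. At no probe did all 11 F1 arrays lie above, or below, all 24 parental arrays (0 of 41517), so the called departures are shifts of means with overlapping ranges. The number of calls depended on the scaling and on single arrays. It was 28 with each array scaled to the 75th percentile of its processed signal, and between 48 (without F1 TN 3) and 141 (without Large White TN 1) when 1 array was left out. The split between higher and lower calls was 41 and 41 with median scaling, and 25 and 43 with scaling on the spike-in controls.

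**Figure D1:**
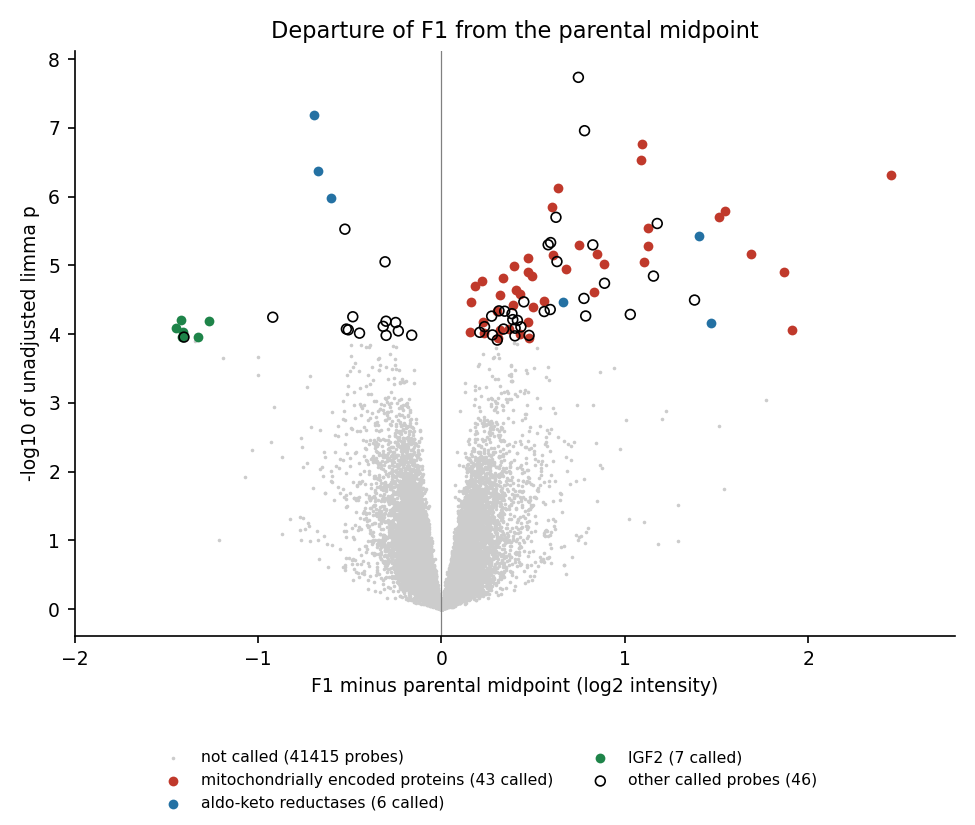
Departure of F1 from the parental midpoint (log2 intensity, x axis) against the -log10 of its unadjusted limma p-value (y axis) for the 41517 kept probes, 1 point each. Coloured points are the called probes of mitochondrially encoded proteins, aldo-keto reductases and IGF2, open circles are the other called probes and grey points were not called; the probes of mitochondrially encoded proteins lie on the higher side and those of IGF2 on the lower side.

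The largest group of departures was formed by genes of the mitochondrial genome, and each of its calls was higher in F1. Of 127 kept probes for the 13 mitochondrially encoded proteins, 43 were called higher and 0 lower. The departure was positive at 111 of the 127, with a median of 0.18 (log2). By the brightest probe of each gene, which is less exposed to the number of probes a gene has on the array, 2 of 13 genes were called higher (ND2 and CYTB) and the median was 0.13. Over all 10097 named genes measured this way the median was -0.01, with 0.0891% called higher and 0.0297% called lower. The 43 calls depended on the scaling, falling to 10 with the 75th percentile of the processed signal, 15 with median scaling and 16 with spike-in scaling, and to 25 without the array F1 HS 1, while 107 to 117 of the 127 departures were positive under the other scalings. Called probes belonged to 9 genes. Since muscle tissue was measured whole, fewer cells of a type and less RNA per cell cannot be told apart, here and in the results that follow.

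Complex I subunits held most of these calls. Of the ND2 probes 11 of 12 were called, with departures from 0.39 to 2.45 (log2), and of the ND1 probes 13 of 20, from 0.23 to 1.69. ND3 had 1 of 3 called and ND5 1 of 3. ND4, a subunit of the same complex, had 0 of 11 called, with departures from -0.17 to 0.25, and neither ND4L (0 of 1) nor ND6 (0 of 2) had a call. Among the other complexes, CYTB, the complex III subunit, had 6 of 21 probes called, and the complex IV subunits COX1, COX2 and COX3 had 3 of 25, 3 of 5 and 2 of 14. ATP6 had 3 of 9, with departures of 0.16 to 0.18, and ATP8, its partner in ATP synthase, 0 of 1.

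At the ND2 probe A_72_P442176, which had the smallest p of the gene, the F1 arrays lay between 16.74 and 17.06 with a median of 16.88 (log2 intensity). Creole arrays ranged from 15.24 to 16.88 with a median of 15.48, and Large White arrays from 15.18 to 16.75 with a median of 15.80. The departure was 1.09 (SE 0.17, adjusted p = 0.0018), with 11 of 11 F1 arrays above the midpoint. F1 was thus above most parental arrays, and 2 parental arrays reached its lowest value.

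At the ND1 probe A_72_P772081 the F1 arrays ranged from 17.20 to 17.55 (median 17.33), Creole from 16.29 to 17.46 (median 16.59) and Large White from 16.14 to 17.22 (median 16.72). Its departure was 0.64 (SE 0.11, adjusted p = 0.0039). The other genes by their probe with the smallest p departed by 0.75 (COX3, adjusted p = 0.0098), 0.68 (CYTB, 0.0146), 1.87 (COX1, 0.0153), 0.50 (ND5, 0.0167), 0.18 (ATP6, 0.0206), 0.41 (COX2, 0.0235) and 0.48 (ND3, 0.0473), with 11 of 11 F1 arrays above the midpoint in each. Several of these calls were lost under another scaling: those of ND1 and COX3 with the 75th percentile, that of CYTB with the 75th percentile and the median, and those of ND5, ATP6, COX2 and ND3 with the 75th percentile, the median and the spike-in controls. The ND3 call was also lost when any of 29 of the 35 arrays was left out, that of COX2 without F1 HS 1 or F1 HS 2 and that of ATP6 without F1 HS 3. All 43 called probes had the same sign within each of the 4 slides that held all breeds, a count favoured by their choice on the departure over all slides.

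**Figure D2:**
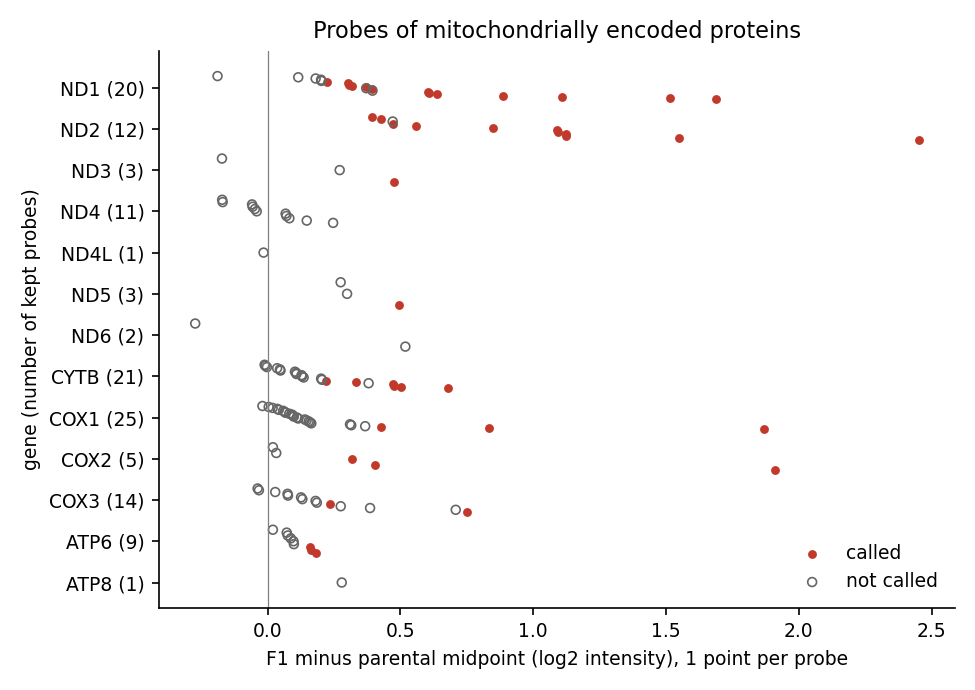
Departure of F1 from the parental midpoint (log2 intensity, x axis) for the 127 kept probes of the 13 mitochondrially encoded proteins, 1 point per probe, by gene (y axis, with the number of kept probes). Filled points were called; 11 of 12 ND2 probes and 13 of 20 ND1 probes were called higher, while the 11 ND4 probes lay between -0.17 and 0.25.

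F1 arrays also resembled each other more than the parental arrays did at these probes. Over the 127 probes the median SD within a breed was 0.10 in F1, 0.21 in Creole and 0.26 in Large White (log2), and F1 had the smallest SD of the 3 breeds at 121 of them. Over all kept probes F1 had the smallest SD at 50.7%, with median SDs of 0.21, 0.23 and 0.24. At the ND2 probe A_72_P719508, which had the largest departure of all called probes and was singled out after its values were seen, the 11 F1 arrays lay between 16.47 and 16.82. There 6 parental arrays lay beside them: Creole TN 1 at 16.50, Creole HS 1 at 16.11, Large White TN 1 at 16.22, Large White TN 2 at 16.33, Large White HS 2 at 16.15 and Large White HS 3 at 16.32. The other 18 parental arrays lay between 12.56 and 14.40, with no array in the gap. The parental arrays were therefore split at this probe, in both breeds and at both temperatures, and the F1 arrays all fell with the upper ones. The 6 upper parental arrays were all on slides 1 and 2. These slides also held parental arrays of the lower group, such as Large White HS 1 and Creole TN 2. Within slides 1, 2, 3 and 4 the departure of this probe was 1.73, 1.95, 2.74 and 2.78.

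At 16 further called probes the widest gap between arrays separated the same 6 parental arrays, together with all 11 F1 arrays, from the rest. The probe A_72_P727968, which shares 54 bases with this one, is among them. Of these 16 probes, 15 were named for mitochondrial genes (5 for ND2, 5 for ND1, 4 for CYTB and 1 for COX3), and the remaining one, A_72_P201832, carries no symbol and is described in the files as transmembrane protease, serine 6. Over all 41517 kept probes 19 had this split, the other 2 being COX3 probes that were not called. Across the 43 called probes of mitochondrial genes, Large White TN 2 reached the lowest F1 array at 40, Creole TN 1 at 39, Large White HS 3 at 37, Large White TN 1 at 35 and Large White HS 2 at 26, whereas Creole HS 1 did so at 7 and Large White TN 5 at 9. Every other parental array did so at 5 or fewer. Which of these pigs share a mother is not in the labels, and the part of kinship in the result was not tested. The parts of probe sequence and of the slide in this split were not tested either.

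The measured nuclear genes of the same complexes held no call. Of the 33 measured nuclear complex I subunits 0 were called, with a median departure of -0.02 and a range of -0.13 (NDUFS1) to 0.17 (NDUFV3), and 0 had an unadjusted limma p under 0.05. Of the 17 measured nuclear subunits of complexes III and IV 0 were called, with a median of -0.02, and again 0 had an unadjusted p under 0.05. The 15 nuclear ATP synthase subunits, matched by their older symbols after the other values were seen, gave 0 calls at 71 kept probes, and by their brightest probes a median of -0.07 with 1 (ATP5A1, -0.16) at an unadjusted p under 0.05. Among the 13 measured genes for transcription and copying of mitochondrial DNA and for the stability of its RNA, 0 were called and 2 had an unadjusted p under 0.05. TFAM, which packages mitochondrial DNA and helps start its transcription, departed by -0.10. POLG, the polymerase that copies this DNA, departed by -0.01, and LRPPRC, which stabilises mitochondrial mRNA, by 0.01. POLRMT, TFB2M, TEFM and TWNK were among the genes of this list that were not measured. The medians of these groups lie beside -0.01 over all named genes.

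PLEKHD1, which encodes a protein with a pleckstrin homology domain, was higher in F1 by 1.18 (SE 0.21, adjusted p = 0.0073), or 2.26-fold, in 11 of 11 F1 arrays. F1 ranged from 6.92 to 7.83 (median 7.36), Creole from 5.54 to 7.77 (median 5.89) and Large White from 5.60 to 7.44 (median 5.90). At its single probe the same 6 parental arrays as above were high: Creole TN 1 at 7.77, Creole HS 1 at 6.94, Large White TN 1 at 7.44, Large White TN 2 at 7.20, Large White HS 2 at 6.97 and Large White HS 3 at 7.39. Creole TN 3 followed at 6.67, and the other 17 parental arrays lay under 6.0. The departure was 0.65 and 0.28 within slides 1 and 2, which held these 6 arrays, and 1.74 and 1.86 within slides 3 and 4.

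Aldo-keto reductases departed in both directions. Of 6 genes of the family measured by their brightest probe, 1 was called higher (AKR1E2) and 1 lower (AKR1C1), with a median departure of -0.06. AKR1A1, AKR1B1, AKR1CL1 and AKR7A2 were not called and departed by -0.13 to 0.07. Of the 6 kept AKR1C1 probes, 3 were called lower and 1, the AKR1C1-like probe, higher. Probes of this family can take up RNA of related members, so the symbol of a single probe is uncertain.

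The AKR1C1 probe A_72_P672532 had the smallest p of any named probe. F1 arrays ranged from 9.48 to 10.64 (median 9.96), Creole from 10.26 to 10.87 (median 10.74) and Large White from 10.43 to 11.28 (median 10.67). The departure was -0.70 (SE 0.10, adjusted p = 0.0013) and 11 of 11 F1 arrays lay under the midpoint. Here 8 of the 11 F1 arrays lay under every parental array, and the exceptions were F1 TN 4 at 10.33, F1 HS 1 at 10.43 and F1 HS 5 at 10.64. At its partner A_72_P505297 the same 8 F1 arrays lay under all parental arrays (departure -0.67, adjusted p = 0.0029), and the third lower probe, A_72_P223422, departed by -0.60 (adjusted p = 0.0049).

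At the AKR1C1-like probe the F1 arrays ranged from 5.60 to 8.53 (median 8.03), Creole from 5.64 to 6.64 (median 5.93) and Large White from 5.58 to 8.56 (median 6.17). The departure was 1.40 (SE 0.26, adjusted p = 0.0093), or 2.64-fold, with 9 of 11 F1 arrays above the midpoint. Its 3 lowest F1 arrays were again F1 TN 4 at 5.60, F1 HS 1 at 5.84 and F1 HS 5 at 6.91. Among the parental arrays only Large White TN 3, at 8.56, reached the higher F1 arrays, and the rest lay at or under 6.64.

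AKR1E2, which reduces carbonyl compounds, showed the same arrays at its ends. F1 ranged from 6.29 to 7.54 (median 7.22), Creole from 6.06 to 6.62 (median 6.26) and Large White up to 7.62 (median 6.25), a departure of 0.66 (SE 0.14, adjusted p = 0.0285). F1 TN 4 lay at 6.29, F1 HS 1 at 6.32, F1 HS 5 at 6.38 and Large White TN 3 at 7.62. The call was lost when any of 8 of the 35 arrays was left out, and with the 75th percentile and spike-in scalings. LOC733635, the C2-like relative, was higher by 1.47 (adjusted p = 0.0400), again with F1 TN 4 at 5.42, F1 HS 1 at 5.89 and F1 HS 5 at 5.62 as the lowest F1 arrays and Large White TN 3 at 9.01 as the only parental array near the others. Thus F1 TN 4, F1 HS 1 and F1 HS 5 lay nearest the parents both at the lower probe A_72_P672532 and at the higher ones. Of 21 other enzymes of glutathione and xenobiotic metabolism 0 were called, with a median of -0.01 and 3 at an unadjusted limma p under 0.05. NQO1, a quinone reductase, departed by -0.13, and HMOX1, the inducible haem oxygenase, by 0.26.

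**Figure D3:**
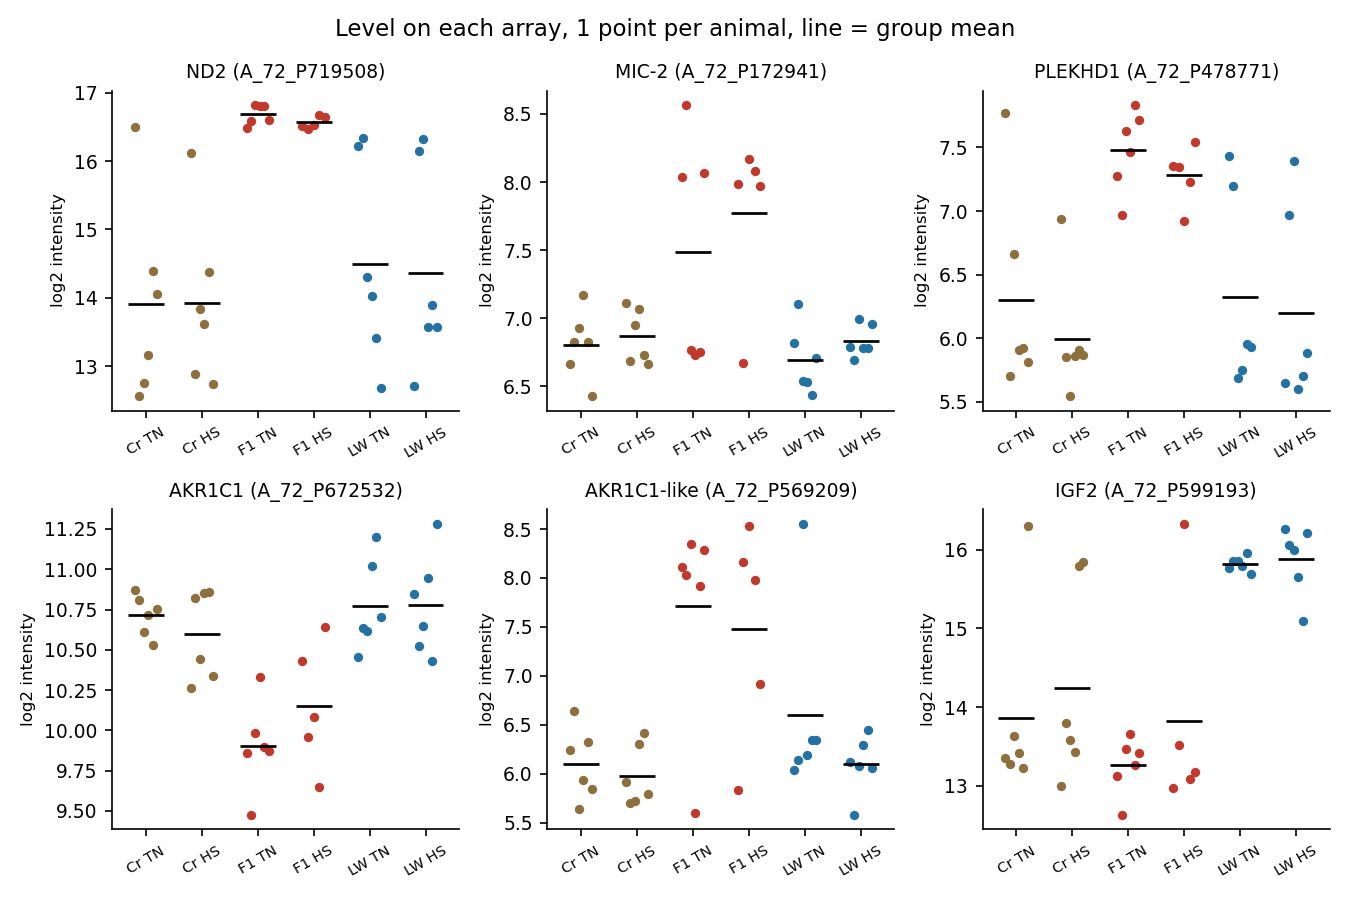
Level on each of the 35 arrays (log2 quantile-normalised intensity, y axis) by group (x axis; Cr is Creole and LW is Large White) for 6 called probes, 1 point per array, with a line at each group mean. All F1 arrays lie with the upper parental arrays at ND2 and PLEKHD1, 7 F1 arrays lie above all parental arrays at MIC-2, 3 F1 arrays lie nearest the parents at both AKR1C1 panels, and 1 F1 array lies with Large White at IGF2.

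IGF2 was lower in F1 than the midpoint, at a level close to Creole. At the probe A_72_P599193 the F1 arrays ranged from 12.63 to 16.33 (median 13.27), Creole up to 16.30 (median 13.51) and Large White from 15.10 to 16.26 (median 15.86). The departure was -1.42 (SE 0.31, adjusted p = 0.0396), or 2.68-fold, with 10 of 11 F1 arrays under the midpoint. The parents themselves differed, Creole minus Large White being -1.80 (SE 0.35, adjusted p = 0.0019). F1 minus Large White was -2.32 (adjusted p = 0.0011), and its difference from Creole, -0.52, did not pass the test (adjusted p = 0.773). A single F1 array, F1 HS 3 at 16.33, lay with Large White. Among Creole arrays, Creole TN 6 lay at 16.30, Creole HS 6 at 15.85 and Creole HS 5 at 15.79, and the other 9 at or under 13.80.

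The remaining IGF2 probes gave like values. Of its 8 kept probes 7 were called lower (the background for lower calls is 0.0578%), the departures of all 8 lay between -1.45 and -1.27, and the parents differed at all 8. A probe without a symbol, described in the files as INS, the neighbouring insulin gene, departed by -1.40 (adjusted p = 0.0468). The calls stood near the threshold: the number of called IGF2 probes ranged from 0 to 8 when 1 array was left out, and A_72_P599193 lost its call without any of 15 of the 35 arrays. With slide as a fixed block 0 of the 8 probes were called, as with the 75th percentile scaling, and within slides the departure of A_72_P599193 ranged from -2.30 to -0.31.

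Of 25 measured imprinted genes IGF2 was the 1 called, with a median departure of 0.04 beside -0.01 over all named genes, and 4 had an unadjusted limma p under 0.05. IGF2R, the receptor that clears IGF2, departed by -0.05, DLK1 by 0.17, MEG3 by 0.05, GRB10 by 0.10 and PEG10 by 0.48, without a call. Of 22 regulators of muscle growth 1 was called, again IGF2, and 5 had an unadjusted limma p under 0.05. IGF1 departed by -0.02, IGF1R by 0.07, MSTN, the inhibitor of muscle growth, by -0.10, and FST, which binds MSTN, by -0.48, and none of these passed the test.

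SLA-6, a non-classical MHC class I gene, was the only one of 21 measured MHC genes called. F1 ranged from 6.85 to 7.98 (median 7.62), Creole from 7.47 to 8.27 (median 7.81) and Large White from 7.51 to 8.20 (median 7.92), a departure of -0.45 (SE 0.10, adjusted p = 0.0453). This call was lost without any of 24 of the 35 arrays. The median departure of the MHC genes was 0.10, and PSMB8, an immunoproteasome subunit, had the largest value, 0.65, without a call (adjusted p = 0.55). Of the 21 MHC genes 3 had an unadjusted limma p under 0.05.

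Of the other named genes, FNTB, the beta subunit of farnesyltransferase, was higher at both of its probes. At A_72_P352953 F1 ranged from 8.68 to 9.84 (median 9.28), Creole from 8.17 to 9.22 (median 8.62) and Large White from 8.13 upwards (median 8.61), a departure of 0.60 (SE 0.11, adjusted p = 0.0098) with 11 of 11 F1 arrays above the midpoint. The other probe departed by 0.58. ELAC2, an endonuclease that trims the ends of tRNA precursors, was higher by 0.63 (SE 0.12, adjusted p = 0.0129), with F1 at 8.40 to 9.58 (median 9.27), Creole at 8.05 to 8.72 (median 8.37) and Large White at 8.15 to 9.53 (median 8.57). Both lost their call under scaling on the spike-in controls.

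The lower calls of single genes were small. ACOT6, an acyl-CoA thioesterase, departed by -0.48 (adjusted p = 0.0375), TMEM168 by -0.25 (0.0397) and TMEM87A by -0.23 (0.0445). CKM, the muscle creatine kinase, departed by -0.16 (0.0459) at 1 of its 11 kept probes, the median over these 11 being -0.07. ACOT6 and TMEM168 were called at 1 of 2 kept probes each, the other departing by -0.47 and -0.03. TMEM87A was called at 1 of 12, the median over these 12 being -0.04. F1 arrays for CKM lay between 18.66 and 18.89, Creole between 18.76 and 19.02 and Large White between 18.64 and 19.13. The calls of ACOT6, TMEM168, TMEM87A and CKM were lost without any of 12, 12, 26 and 31 of the 35 arrays.

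F1 was also tested against each parent, and a probe counted as outside both when both differences passed with the same sign. A called probe that is not counted here was not shown to lie between the breeds. The ND2 probe A_72_P726683, for example, departed by 0.85 with a Creole minus Large White difference of -0.20. Its fitted F1 mean was thus above both breeds, but it is not counted. F1 differed from Creole at 198 probes (0.477%) and from Large White at 218 (0.525%). It was outside both at 30 probes (0.0723%), 27 above and 3 below, and all 30 were also called for the departure. Of these, 18 were named for mitochondrial genes, 6 were the AKR1C1, AKR1C1-like, FNTB and PLEKHD1 probes, and 6 carried no symbol. Among those without a symbol, A_72_P257802 and OTTSUST00000001126 had passed the background filter only through F1. The ND2 probe A_72_P442176 was above Creole (adjusted p = 0.0010) and 0.99 above Large White (adjusted p = 0.0088). The AKR1C1 probe A_72_P672532 differed from Creole by -0.64 (adjusted p = 0.0045) and from Large White by -0.76 (adjusted p = 0.0011). The number of such probes was 16 to 47 when 1 array was left out, and 12 with the 75th percentile scaling.

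Where the parents differed, F1 mostly lay between them. Creole and Large White differed at 1513 probes (3.64%), 717 higher in Creole (1.73%) and 796 higher in Large White (1.92%). The position of F1 between them was taken as 0 at Large White, 0.5 at the midpoint and 1 at Creole. The probes were chosen on the parental difference that the position is divided by, and the position was not tested. Its median over the 1513 probes was 0.519, with the middle 50% of probes between 0.309 and 0.703. F1 lay between the parents at 1370 probes (90.5%), and within 0.25 to 0.75 at 919 (60.7%). The median was 0.461 at the probes higher in Creole and 0.567 at those higher in Large White. Of the 1513, 12 were also called for the departure (0.793%, beside 0.246% of all kept probes), and 7 of these 12 were IGF2 probes. This count ranged from 0 to 18 when 1 array was left out, being 0 without F1 TN 1, F1 TN 3, F1 TN 5, Large White HS 6, Large White TN 4 or Large White TN 5, and from 0 (75th percentile scaling) to 44 (array weights) under the other alternatives. By single F1 array the median position ranged from 0.306 (F1 TN 2) to 0.697 (F1 HS 5), with a median of 0.524 and an SD of 0.131 (n = 11), so the pooled median lay within this spread of 0.5.

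**Figure D4:**
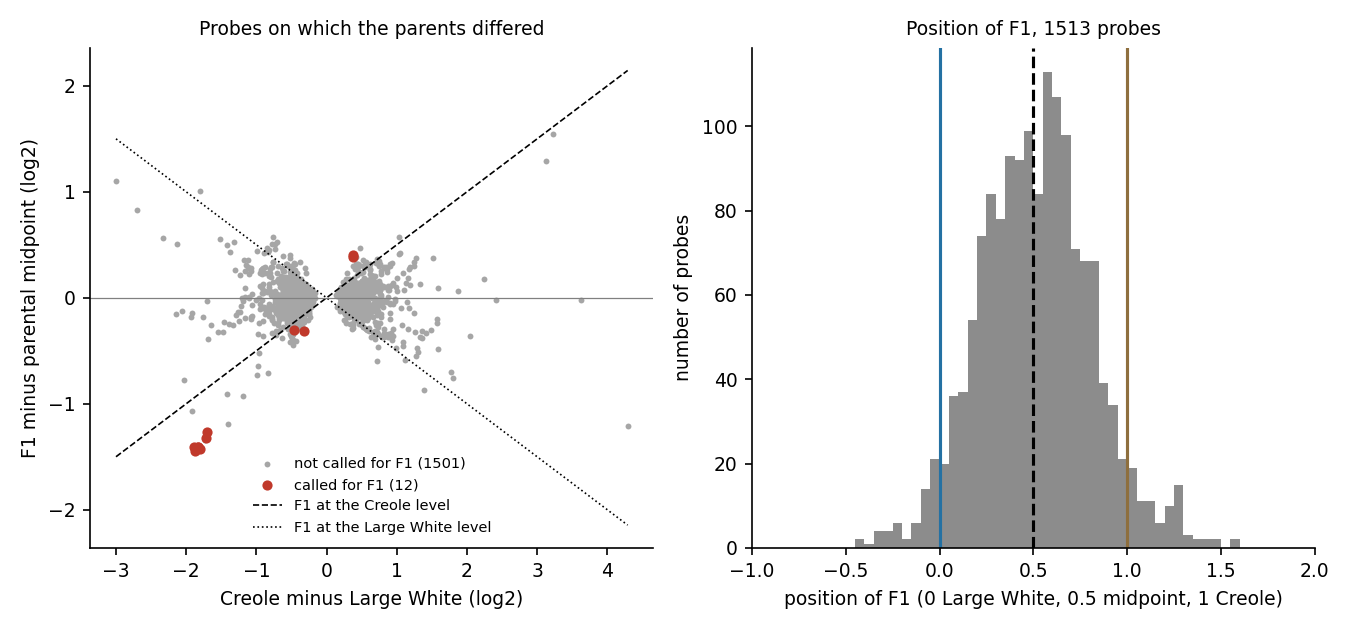
Left, departure of F1 from the midpoint (y axis) against the Creole minus Large White difference (x axis), both in log2, for the 1513 probes at which the parents differed, with the 12 called for the departure in red, a dashed line for F1 at the Creole level and a dotted line for F1 at the Large White level. Right, number of these probes (y axis) by the fitted position of F1 (x axis, 0 at Large White, 0.5 at the midpoint, 1 at Creole); the median is 0.519, and 1370 probes lie between 0 and 1.

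The genes with the largest parental differences gave single positions along this range. They are described by their values, since their choice used the parental difference. For SELENOF, a selenoprotein of the endoplasmic reticulum, Creole ranged from 8.70 to 10.06 (median 9.47), Large White from 5.46 to 6.69 (median 5.59) and F1 from 5.51 to 9.44 (median 8.82). The fitted parental difference was 3.63 and the departure -0.02, a position of 0.49, although F1 arrays covered nearly the whole range between the breeds. The parents differed at 1 of the 6 SELENOF probes. KIT, a receptor tyrosine kinase, differed between the parents at 4 of 4 probes. At its first probe Creole ranged from 7.04 to 8.34, Large White from 8.85 to 10.95 and F1 from 7.85 to 9.41, giving a position of 0.60.

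PRKAG3, the AMPK subunit of glycolytic muscle, lay at a position of 0.56, OAZ3, an ornithine decarboxylase antizyme, at 0.57, and LUM, the matrix proteoglycan lumican, at 0.35. CYCS, the cytochrome c of the respiratory chain, lay at 0.91 with a departure of 1.29 (SE 0.57, adjusted p = 0.61), and NPSR1, a neuropeptide receptor, at 0.10 with -0.70 (SE 0.28, adjusted p = 0.52). LOC100524282, a relative of a ribosomal protein gene, lay at 0.13 with 1.11 (SE 0.56, adjusted p = 0.69), and SOD2, the mitochondrial superoxide dismutase, at 0.88 with -0.77 (SE 0.41, adjusted p = 0.73). For these the departure was large but so was its SE, and none passed the test. Each position is that of 1 probe. The parents differed at 2 of 14 kept CYCS probes, 3 of 8 for SOD2, 3 of 11 for LUM, 1 of 2 for LOC100524282 and 2 of 3 for PRKAG3. For NPSR1 (2) and OAZ3 (3) they differed at all kept probes. Over all kept probes the median departure was 0.0042 for CYCS, -0.53 for NPSR1, 0.59 for LOC100524282 and -0.07 for SOD2. Among the 10 genes named for the parental difference, IGF2 was the one called for the departure, at a position of 1.25 by its probe A_72_P303139 and of 1.29 by A_72_P599193.

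Whether the departure changed with temperature was tested by the difference between HS and TN. No probe passed this test (0 of 41517, smallest adjusted p = 0.804), and 2276 had an unadjusted limma p under 0.05. Taken alone, the TN departure was called at 5 probes (0.012%), 3 higher (0.00723%) and 2 lower (0.00482%), and the HS departure at 0, with 3148 and 2334 probes at an unadjusted p under 0.05. The named TN calls were the AKR1C1 probe A_72_P672532 at -0.84 (SE 0.14, adjusted p = 0.0114), against -0.53 in HS (SE 0.15), and ELAC2 at 0.92 (SE 0.15, adjusted p = 0.0114), against 0.30 in HS (SE 0.16). For ELAC2 the difference between HS and TN was -0.63 (SE 0.22, unadjusted p = 0.0074, adjusted p = 0.804). For the ND2 probe A_72_P442176 it was 0.12 (SE 0.35), and for IGF2 0.34 (SE 0.64). The median SE of this difference over the 102 called probes was 0.22, so changes of a size like the departures themselves were often not detectable.

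**Figure D5:**
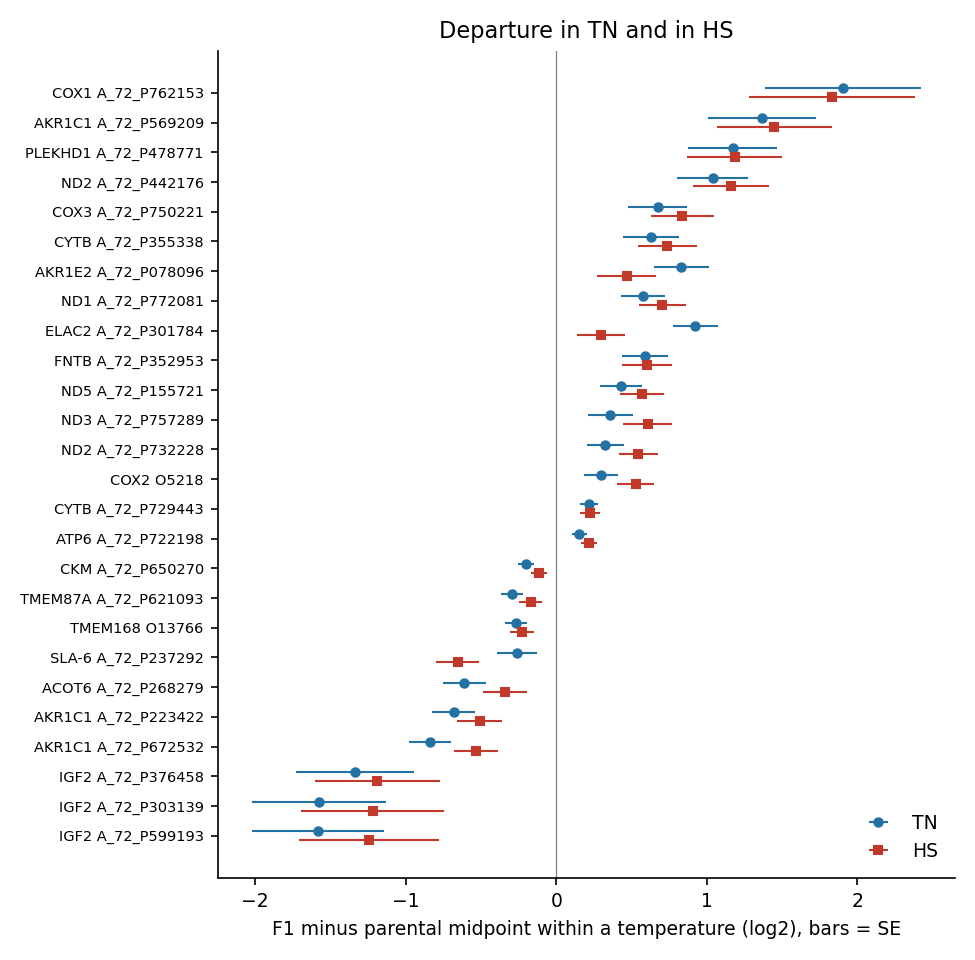
Departure of F1 from the parental midpoint (log2 intensity, x axis) at the called probes of the named genes (y axis, 1 line per probe), shown at TN as blue circles and at HS as red squares, with bars of 1 SE. The probes were chosen on the departure over both temperatures, which favours equal signs; ELAC2 shows a wide gap, 0.92 at TN and 0.30 at HS.

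The remaining gene groups held no call. The 29 heat shock proteins had a median departure of 0.06, with 22 positive and 1 at an unadjusted limma p under 0.05, and HSPA4 at 0.27 and HSPH1 at 0.28 among the largest. The 21 genes of glycolysis and glycogen use had a median of -0.05 and 0 at an unadjusted p under 0.05. Fibre type genes held no call either, with medians of -0.01 over 13 fast fibre genes and 0.01 over 11 slow ones.

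Markers of other cell types in the muscle were checked beside these results. Of 11 adipocyte markers 0 were called and 3 were positive, the highest at 0.01. Their median was -0.27 (FABP4, the lowest, at -0.55, PLIN1 at -0.36, ADIPOQ at -0.27). Their mean level ranged from 10.95 to 11.89 in F1, 11.28 to 11.98 in Creole and 11.32 to 12.12 in Large White. Of 19 leukocyte markers 0 were called and 17 were positive, with a median of 0.11 and mean levels from 8.51 to 10.02 in F1, 7.61 to 10.27 in Creole and 8.14 to 10.27 in Large White. Connective tissue markers were at or under the midpoint at 16 of 17 genes (median -0.08), and 0 were called. Blood cell (6), endothelial (8) and nerve (11) markers had medians of -0.03, -0.04 and -0.03 and no call. The nerve markers spread from -0.31 to 0.87. An unadjusted limma p under 0.05 was held by 4 of the 11 nerve, 3 of the 17 connective tissue and 1 of the 6 blood cell markers. Of the adipocyte and leukocyte markers 1 each had such a p, and of the endothelial ones 0. Over all kept probes 3053 of 41517 had one. All these ranges overlapped between the breeds. With the leukocyte mean as a covariate the number of called probes was 180, with 49 of them for mitochondrial genes, and the part of cell composition in the other departures was not tested.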

How the data were processed

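Muscle RNA was hybridised by the authors to 1-colour Agilent porcine arrays, and spots were quantified with Feature Extraction 10.10.1.1 per the submitters' processing notes. The deposited scanner files hold intensity on a linear scale with quality flags. The deposited value table holds log2 values of 40649 probes for which the authors had quantile-normalised the median intensities and kept expressed probes only. Its 35 columns each correlated best with the scanner values of the same array (lowest r 0.99998).

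Values were recomputed from the scanner files. The median pixel intensity was quantile-normalised without background subtraction and log2 was taken. Outlier spots (105 in all) were set to missing, 0 spots were saturated, and spots of 1 probe were averaged. Of 60305 probes, 41517 were kept, namely those well above background on 75% or more of the arrays in any 1 group. Through F1 groups alone 344 passed, of which 2 were called, A_72_P257802 and OTTSUST00000001126. Symbols came from the probe accession through reference gene tables of Sscrofa11.1 that served for naming alone, else from the files (some of them older symbols), and 21537 kept probes had one (10097 genes). No probe was mapped to a genome. No deposited column was left unused (0).

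Breed and temperature were fitted as additive fixed effects in limma 3.58.1 (R 4.3.3) over all 35 arrays, with Benjamini-Hochberg adjustment at 0.05. The methods of the study have these fixed effects and add pen, slaughter day, father and mother as random terms, which are not in the labels. The test of the departure by temperature used 1 mean per group. No pair of arrays held identical values. The fits were tested on simulated data. Sequences shown are those of the probes in the deposited files.

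Named genes were the 12 with the smallest p in each direction (7 genes were called lower), all mitochondrially encoded proteins and aldo-keto reductases, called genes of the other lists, the 5 largest parental differences in each direction, and 5 outside both parents. Further members of the gene lists, most of them not called, are named as examples of their list and were picked after their values were seen. The comparison, its members and the gene lists were chosen with earlier results of these data known. The number of arrays limits the precision. Alternatives tried were other scalings, background correction, filters, models, slide as a block, array weights, covariates, each temperature alone, and leaving out each array.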

Additional observations from a re-analysis of the deposited data

Results flagged for a closer look

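The 51 named probes were screened for single arrays that stood apart within their group. The gap of the highest or lowest array to its neighbour was divided by the range of the group. It exceeded Dixon's 95% critical value in 36 of 306 groups tested (11.8%), where independent normal values give about 5%. The groups are not independent, since probes of 1 gene repeat the same array. Many of the probes were also chosen on these data, so the 5% is a reference only. The flagged arrays fell in all groups: 6 in Creole TN, 6 in Creole HS, 8 in F1 TN, 6 in F1 HS, 6 in Large White TN and 4 in Large White HS. No difference of the departure between TN and HS was flagged. Values below are log2 intensities.

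For genes of the mitochondrial genome the arrays were mostly Creole HS 1 and Creole TN 1. Creole HS 1 stood apart at ND2 (A_72_P442176, 16.45), CYTB (A_72_P355338, 17.97 and A_72_P729443, 18.72), COX3 (A_72_P722568, 19.18) and COX1 (A_72_P724398, 19.03), and at PLEKHD1 (6.94). Creole TN 1 did so at ND2 (A_72_P442176, 16.88) and COX3 (A_72_P750221, 17.33). The others were F1 HS 3 at COX3 (A_72_P722568, 19.18), Large White HS 4 (18.44) and Large White TN 1 (18.61) at COX1 (A_72_P724398), and Creole TN 6 at ND1 (A_72_P763439, 18.04).

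For the aldo-keto reductases F1 TN 4 stood apart at AKR1C1-like (A_72_P569209, 5.60), AKR1C1 (A_72_P223422, 12.07) and AKR1E2 (6.29), and Large White TN 3 at AKR1C1-like (8.56) and AKR1E2 (7.62). For IGF2, Creole TN 6 and F1 HS 3 stood apart at A_72_P599193 (16.30 and 16.33), A_72_P303139 (15.90 and 16.12) and A_72_P376458 (17.76 and 17.68).

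Among the other genes, F1 TN 6 stood apart at ELAC2 (9.11), SLA-6 (6.85), NPSR1 (7.27), PRKAG3 (9.89) and LUM (9.64). F1 HS 2 did so at SLA-6 (7.62) and F1 HS 3 at LUM (7.95). Large White arrays did so at ACOT6 (HS 6, 8.71), CKM (HS 5, 18.64 and TN 1, 19.13), LOC100524282 (TN 4, 14.98), OAZ3 (HS 6, 5.60) and SOD2 (TN 6, 8.04).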

How the results depend on the processing

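No paired analysis was possible because replicate numbers only follow the order of deposition and pair nothing. Of the 18 alternatives to the 102 called departures, 11 kept the count within 1.5 times. Scaling to the 75th percentile of the processed signal gave 28 (10 of them for mitochondrial genes, and 12 probes outside both parents). Median and spike-in scaling gave 15 and 16 for mitochondrial genes, in place of 43. Testing 1 probe per gene, which leaves fewer tests, gave 6, 2 and 1. TN arrays alone gave 4 calls and HS arrays alone 3, with 0 for mitochondrial genes in each. Array weights gave 289 calls and 81 outside both parents, array brightness as a covariate 161 and 47, and the leukocyte mean as a covariate 180 and 73, with splits of 158 higher and 131 lower, 93 and 68, and 116 and 64; the cause was not tested. Shifts of the median of all probes stayed under 0.1 (log2) in each scaling. The balance of higher and lower calls depended on the scaling. The split of 78 higher and 24 lower became 41 and 41 with median scaling, and 25 and 43 with spike-in scaling. All 102 called departures kept their sign with the 75th percentile, median and spike-in scalings, though not all kept their call. Among the named probes, no called departure changed sign under any alternative.

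Leaving out 1 array gave 48 to 141 called departures. The count fell more than 1.5 times without Creole HS 2 (65), Creole TN 2 (59), Creole TN 4 (64), F1 HS 1 (52), F1 HS 3 (59), F1 HS 4 (49), F1 HS 5 (62), F1 TN 1 (55), F1 TN 3 (48), F1 TN 4 (67), F1 TN 5 (58), Large White HS 6 (63), Large White TN 4 (59) and Large White TN 5 (55). The count for mitochondrial genes was 25 to 50, lowest without F1 HS 1 (25), F1 HS 3 (26), F1 HS 5 (27), F1 HS 4 (28) and F1 TN 3 (28). Probes outside both parents numbered 16 to 47: 47 without Creole TN 1 or Large White TN 1, 19 without F1 HS 1, F1 HS 3 or F1 HS 4, 17 without F1 TN 1, Large White HS 1, Large White HS 6, Large White TN 5 or Large White TN 6, and 16 without F1 TN 3, Large White HS 4 or Large White TN 4. The median position stayed between 0.486 and 0.535, and between 0.508 and 0.608 under the other alternatives. The test by temperature called 0 probes under each alternative run.

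By their probe with the smallest p, ND2, ND1, PLEKHD1, AKR1C1, AKR1C1-like, FNTB, COX3, COX1, CYTB, ND5 and ELAC2 were called in 35 of 35 fits without 1 array. Of these, ND1, COX3, CYTB and ND5 lost their call with the 75th percentile scaling, CYTB and ND5 with median scaling, and ND5, FNTB and ELAC2 with spike-in scaling. With TN or HS arrays alone the named calls were lost, except AKR1C1 and ELAC2 in TN.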

Other observations

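Called probes without a symbol added 1 further group, chosen after its values were seen. MIC-2, an MHC class I-related gene whose protein is a ligand of lymphocyte receptors, was higher in F1 at both of its called probes, which the files describe by name but which carry no symbol in the reference names. At A_72_P172941 F1 ranged from 6.67 to 8.57 (median 7.98), Creole from 6.43 to 7.17 (median 6.82) and Large White from 6.44 to 7.11 (median 6.78), a departure of 0.83 (limma, SE 0.15, adjusted p = 0.0098), and A_72_P555381 departed by 0.48 (adjusted p = 0.0459). The F1 arrays above all parental arrays at both probes were F1 TN 1, F1 TN 2, F1 TN 6, F1 HS 1, F1 HS 3, F1 HS 4 and F1 HS 5. These 7 arrays were also those above all parental arrays at 2 transcripts listed without a description, OTTSUST00000001125 (0.78) and OTTSUST00000001126 (0.63). They were those under all parental arrays at 2 others, OTTSUST00000000780 (-0.51) and OTTSUST00000000781 (-0.52). OTTSUST00000001126 was well above background on 7 F1, 3 Creole and 3 Large White arrays. It passed the background filter only through F1, so it gives this grouping no support of its own.

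Another 6 F1 arrays (F1 TN 3, F1 TN 4, F1 TN 5, F1 TN 6, F1 HS 4 and F1 HS 5) lay above all parental arrays at 2 called probes without a symbol, A_72_P297749 (1.38, described in the files by the bovine NADH-ubiquinone oxidoreductase chain 4) and A_72_P076681 (1.03), and under all of them at the called TMEM87A probe (-0.23). These 6 were all the F1 arrays of slides 3 and 4, so this set cannot be told apart from the slide. Within slides 1, 2, 3 and 4 A_72_P297749 departed by 0.57, 0.62, 1.69 and 1.77. A_72_P076681 departed by 0.38, 0.76, 1.22 and 1.11, and the TMEM87A probe by -0.02, -0.21, -0.27 and -0.33.

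The called genes outside the naming rule were MX2, an interferon-induced GTPase (0.79), SNW1, a splicing and transcription cofactor (0.56), EYA4, a transcriptional coactivator (0.41), DLGAP4, a scaffold protein (0.40), DHRS7, a short-chain dehydrogenase (0.39), FZD6, a Wnt receptor (0.34), MAP2, a microtubule-associated protein (0.30), and LOC733635, described above. Apart from LOC733635 each was called at 1 probe only, of 3 kept for MX2 and SNW1, 7 for DHRS7 and 2 for the others. The lowest departure among the kept probes was 0.003 for SNW1 (median 0.03) and -0.01 for FZD6. It was 0.13 to 0.23 for MX2, EYA4, DLGAP4, DHRS7 and MAP2. EYA4 was the 1 of the 102 called probes whose departure changed sign between slides (-0.01 to 0.65).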
